A study of Homo sapiens with 12 samples.

Results

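In KO-52 cells, 2844 chromatin regions had an ATAC-seq peak in empty vector (EV) cells and in p30 cells, with and without tunicamycin, and no peak in p42 cells under either treatment. They are the regions of open chromatin that the p42 peak lists alone left out. They were chosen by the presence of a peak: peaks on chromosomes 1 to 22 and X of all 6 lists were merged where they overlapped by at least 1 bp, which gave 355051 regions, and a region was kept when both EV lists and both p30 lists had a peak there and neither p42 list had one. Of the 124130 regions with a peak in the 4 EV and p30 lists, 2.29% were chosen in this way. The same rule applied to the other lines gave 1642 regions missing from the p30 lists, 1.33% of the 123479 with peaks in the other 4 lists, and 2221 missing from the EV lists, 1.78% of 124739. These regions serve as mirror sets below.

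In ATAC-seq a transposase, Tn5, inserts adapters into DNA that proteins leave bare, and sequenced fragments pile up where chromatin is open. KO-52 (KO52 in the labels) is an acute myeloid leukaemia cell line with biallelic CEBPA mutations, which all 3 lines share, and the lines carried an empty vector, p42 or p30. The study's methods describe p42 and p30 for lasting expression in these cells as ERT2 fusions in GFP-sorted cells, without naming the plasmids of the ATAC-seq libraries. Cells with such fusions, and their empty vector controls, were given 4-hydroxytamoxifen on the day before an experiment so that the proteins enter the nucleus, which is stated in general and not for these libraries. Cells were kept in DMSO or in tunicamycin at 2 µg/mL for 8 h to induce endoplasmic reticulum stress, with 2 replicates per group and 50000 nuclei per replicate, 12 libraries in all, and the deposited lists hold peaks called on pooled replicates.

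CEBPA encodes C/EBPα, a transcription factor that drives granulocyte differentiation. The full-length p42 carries the complete transactivation domain, whereas the shorter p30, made from a downstream start codon and favoured by many AML mutations, lacks its first part and keeps the DNA-binding leucine zipper. Open chromatin away from promoters usually marks enhancers, whose sequences hold sites of the factors active in the cell. AP-1 (dimers of FOS and JUN family proteins), RUNX factors, GATA factors and the ETS factor PU.1 are factors known to act at blood cell enhancers, GATA factors most of all in stem cells, megakaryocytes and erythroid cells, and PU.1 in myeloid cells.

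The presence of a peak is a threshold call. With 1 pooled list per group there was no spread between replicates, so no test was run, the values below describe these 6 lists, and Wilson 95% intervals cover the counting of regions only. The depth, estimated from the lists in units of 1e6 tags, was between 22.2 and 26.5 in the EV and p30 lists, 30.0 in the p42 DMSO list and 25.4 in the p42 tunicamycin list, and the 2 p42 lists were the longest, with 221501 and 254239 peaks against 187704 to 207679. The p42 DMSO list was thus the deepest of all, while the p42 tunicamycin list lay within the range of the others. The absence of a peak is not a measure of closed chromatin, and in such bulk samples fewer cells with an open region and less opening per cell cannot be told apart. As a check of the cell type, SPI1, CEBPA, MPO, CD33 and CSF3R of the myeloid lineage and CD34 and KIT of progenitors had a promoter peak in all 6 lists, as did CD3E, PAX5 and EPCAM of lymphoid and epithelial cells. The erythroid HBB had one in none and the epithelial CDH1 in 3, so promoter peaks did not separate lineages.

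The rule did not use sequence, and examples are shown for the motifs that the counts below turn on. Each line below gives the 101 bases around the summit in hg38, read on the forward strand, of one of the highest-ranked regions with a match to a motif close to its summit. The line carries the name of the nearest protein-coding gene, and the match to the named motif is in capitals: TGACTCA for AP-1, TGTGGTT for RUNX, AGGATGTGG for a joined ETS and RUNX sequence, and AGATAAG for GATA, each on either strand. Other motifs in the same window stay in lower case.
AP-1, WLS (chr1:68331201-68331301): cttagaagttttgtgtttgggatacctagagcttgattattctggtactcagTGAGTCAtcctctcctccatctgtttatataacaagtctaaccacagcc
AP-1, GRAMD2B (chr5:126044190-126044290): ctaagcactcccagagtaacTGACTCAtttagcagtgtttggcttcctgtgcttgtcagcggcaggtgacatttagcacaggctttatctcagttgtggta
AP-1, GSDME (chr7:24755756-24755856): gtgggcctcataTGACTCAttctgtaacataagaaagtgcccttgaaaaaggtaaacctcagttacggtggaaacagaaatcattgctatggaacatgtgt
AP-1 and RUNX, PIK3R1 (chr5:68381182-68381282): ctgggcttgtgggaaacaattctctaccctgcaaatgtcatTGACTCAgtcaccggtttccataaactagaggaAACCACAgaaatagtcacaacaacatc
AP-1 and RUNX, SEMA3D (chr7:85489732-85489832): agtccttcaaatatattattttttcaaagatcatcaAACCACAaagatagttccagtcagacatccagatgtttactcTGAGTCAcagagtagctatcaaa
RUNX, RBM26 (chr13:79346707-79346807): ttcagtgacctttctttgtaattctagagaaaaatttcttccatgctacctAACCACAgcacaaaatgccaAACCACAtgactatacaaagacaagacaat
RUNX, INSM1 (chr20:20353711-20353811): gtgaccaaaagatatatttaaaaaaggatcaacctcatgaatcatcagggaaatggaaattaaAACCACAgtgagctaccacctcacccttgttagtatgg
ETS:RUNX, IFNA1 (chr9:21454299-21454399): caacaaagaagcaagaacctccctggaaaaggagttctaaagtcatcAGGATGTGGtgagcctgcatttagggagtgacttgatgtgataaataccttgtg
GATA, P2RY1 (chr3:152798212-152798312): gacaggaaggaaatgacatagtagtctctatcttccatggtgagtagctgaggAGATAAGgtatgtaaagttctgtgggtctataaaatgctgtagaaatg
GATA, GTF2B (chr1:88911296-88911396): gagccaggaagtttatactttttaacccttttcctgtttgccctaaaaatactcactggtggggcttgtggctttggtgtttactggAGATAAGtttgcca

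AP-1 read as TGACTCA on one strand is TGAGTCA on the other, and RUNX read as TGTGGTT is AACCACA on the other. The WLS, GRAMD2B and GSDME windows show the AP-1 heptamer, in the PIK3R1 and SEMA3D windows an AP-1 and a RUNX match stand within the same 101 bases, and the RBM26 window holds 2 RUNX matches. In Alu repeats, which are present in very many copies, short reads are hard to place. Matches to the Alu-typical GAGTGCAGT or GACTACAGG, a search added after the data were seen, were found in 55 of the 2844 regions, 1.93% (1.49 to 2.51), against 2.51% of all regions. The share was lower, 1.45% (1.38 to 1.51), in regions with EV and p30 peaks and a peak in at least 1 p42 list. A match describes the letters and does not show that a factor was bound.

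As peaks, these regions were weak. The values in this paragraph are of the lists that chose the regions and are given as a description. The median pileup at the summit was 8 tags in each of the EV and p30 lists, and the highest was 31 in EV DMSO, 36 in EV tunicamycin, 35 in p30 DMSO and 34 in p30 tunicamycin. The median −log10 q, the caller's significance corrected for the number of positions tested, was 4.96 and 4.61 in the EV lists (DMSO, then tunicamycin) and 4.50 and 4.85 in the p30 lists. Ranked by −log10 q within its list, where 100 is the strongest, the median region stood at percentile 34.2 (EV DMSO), 32.5 (EV tunicamycin), 33.4 (p30 DMSO) and 33.2 (p30 tunicamycin). Regions with a peak in all 6 lists stood at 69.0 to 76.7, with median pileups of 16 to 19 tags. The median merged width was 184 bp against 361 bp for regions found in all 6 lists, and the GC content around the summit was 43.8% against 48.3%. In the mirror sets the medians were 21.9 (EV DMSO), 27.5 (p30 DMSO), 20.9 (p30 tunicamycin) and 20 (EV tunicamycin), lower than in the set. In their p42 lists the medians were 34.0 after tunicamycin, near those of the set, and 44 in DMSO, above them.

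The 12 regions with the highest rank, judged by their lowest percentile over the 4 lists, are named by the nearest protein-coding gene. These genes were IL12RB2, EMCN, HSD17B3, WLS, PIK3R1, RBM26, RPIA, GRAMD2B, GSDME, INSM1, DAOA and UGCG. The values of each region are the same measure that chose it and are given as a description. The strongest, at chr1:67285963-67286525 between genes and at −21101 bp (minus for upstream) from a start site of IL12RB2, a chain of the interleukin-12 receptor, held 18 tags in EV DMSO, 18 in EV tunicamycin, 21 in p30 DMSO and 17 in p30 tunicamycin. At the background of this place, scaled to the depth of each p42 list, a pileup of 5 tags had sufficed in both p42 lists. An intronic region of GSDME, the gene of the pore-forming gasdermin E, at chr7:24755676-24755900, held 16, 19, 17 and 25 tags in the same order, where 8 and 7 had sufficed, but a p42 peak began 234 bp away. The region with the most tags of the 12, at chr13:104980715-104980871 between genes, held 24, 25, 22 and 25 tags, where 12 and 11 had sufficed. It lay at −485055 bp from DAOA, its nearest gene. The EV and p30 values overlapped in these 3 regions.

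The intronic region of EMCN held 16, 14, 21 and 17 tags in EV DMSO, EV tunicamycin, p30 DMSO and p30 tunicamycin. There 5 tags had sufficed in the p42 DMSO list and 4 in the p42 tunicamycin list. The remaining 8 held 11 to 25 tags per list. Among them were a region at −4513 bp from UGCG, the gene of glucosylceramide synthase, and intronic regions of HSD17B3 and RBM26. HSD17B3 encodes a testosterone-forming dehydrogenase and RBM26 an RNA-binding protein. Another lay in an intron of CFAP61, with INSM1, a neuroendocrine transcription factor gene, nearest. Others lay in introns of unnamed non-coding genes, far from their nearest protein-coding gene. Their distances were 370427 bp from PIK3R1, the regulatory subunit of PI3-kinase, 146849 bp from RPIA, a pentose phosphate pathway enzyme gene, and −315892 bp from GRAMD2B. The last lay at −98131 bp from WLS, the gene of the carrier that brings Wnt proteins to the cell surface. Within 100 bp of the summit, 5 of the 12 held an AP-1 match and 7 a RUNX match, 10 held at least 1 of them and 2 held both. Of the 12, 1 region held an Alu-typical word, the one in EMCN, and it was among the 5 with an AP-1 match.

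Over all 2844 regions the margin was smaller. The EV and p30 pileups in it come from the lists that chose the regions, so it is given as a description. At all 2844 the scaled pileup reached the number needed in both p42 lists. The median pileup needed in a p42 list was 4 tags, and the mean EV and p30 pileup scaled to the depth of that list had a median of 9.42 for p42 DMSO and 7.99 for p42 tunicamycin. At 1365 regions (48.0%) the scaled pileup was at least 2 times the number needed in the p42 DMSO list, at 699 (24.6%) in the p42 tunicamycin list, and at 674 (23.7%) in both. The caller also asks for a stretch of signal of at least the fragment length, so these numbers are no strict bound. The nearest p42 peak was a median of 2086 bp away, under 100 bp at 48 regions (1.69%) and under 250 bp at 327 (11.5%), where the absence of an overlap may rest on where the peak ends were set. Just outside the rule were 4340 regions with a peak added in the p42 DMSO list only, of a median of 8 tags there, and 2530 with one in the p42 tunicamycin list only, of a median of 7 tags, along with 923 to 1581 regions that lacked a peak in exactly 1 of the EV and p30 lists.

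Levels in the 4 lists moved together across the 2844 regions. The summit pileup divided by the estimated depth had a Pearson r of 0.71 (Spearman rho 0.55) between EV DMSO and EV tunicamycin, 0.73 (0.58) between the p30 lists, 0.70 (0.54) between EV and p30 in DMSO and 0.71 (0.55) between EV and p30 in tunicamycin. These are correlations across regions that share the local background and passed the same threshold. The median log2 ratio of tunicamycin to DMSO was −0.06 in EV and 0.20 in p30 cells, with 5th to 95th percentiles of −0.85 to 0.67 and −0.65 to 0.85. Both medians were small beside the spread between regions.

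The DMSO and tunicamycin libraries are separate, so that lists of one treatment can show how much of a choice made on the other was repeated, within merged regions built from all 6 lists. When regions were chosen on the DMSO lists alone, with peaks in EV and p30 and none in p42, 12394 were found. In the tunicamycin lists, which had no part in this choice, 62.1% (61.3 to 63.0) had a peak in EV, 56.4% (55.5 to 57.2) in p30 and 36.0% (35.1 to 36.8) in p42. The p42 list was again the lowest, although it is the longest of the 3 tunicamycin lists. In the mirror sets chosen on DMSO the p42 tunicamycin list was the highest, with 58.4% of 13001 regions missing in p30 and 59.9% of 22299 missing in EV. The list of the missing line held 39.1% (38.2 to 39.9) there for p30 against 45.4% (44.5 to 46.2) for EV, and 43.8% (43.2 to 44.5) for EV against 41.4% for p30. The whole pattern was repeated in tunicamycin for 22.9% of the regions missing in p42, against 12.6% and 9.96% in the mirror sets. Chosen on the tunicamycin lists, 14433 regions had a DMSO peak in 61.9% (EV), 68.7% (p30) and 50.4% (p42), while in the mirror sets the p42 DMSO list held 76.9% and 76.2%.

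Stronger peaks repeated more often in all 3 lines. Of the 1833 DMSO-chosen regions whose −log10 q reached 5 in EV as well as in p30, 87.6% (86.0 to 89.0) had a tunicamycin peak in EV, 85.7% (84.0 to 87.2) in p30 and 51.9% (49.6 to 54.2) in p42. The gap between p42 and the other lines was thus wider than over all 12394, but more of the stronger regions than of all regions had a p42 peak after tunicamycin.

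Of the 37 motifs searched, AP-1 had the largest difference from the reference in percentage points, while NR4A, MEF2 and HOX:PBX, described below at much lower shares, had larger ratios to the unweighted reference. To the weighted reference the ratios were 2.29 for NR4A, 1.75 for MEF2 and 1.88 for HOX:PBX, against 2.14 for AP-1. A TGACTCA match lay within 100 bp of the summit of 681 of the 2844 regions, 23.9% (22.4 to 25.5), against 10.9% of the 121286 regions that had EV and p30 peaks and also a peak in at least 1 p42 list, called the reference here, and 9.57% of all 355051 regions. Weighting the reference to the GC content and the percentiles of the set gave 11.2%. The share was 18.6% in regions found only in the 2 EV lists, 12% in those found only in the 2 p30 lists, 9.87% in regions missing in p30, 7.56% in regions missing in EV and 5.86% in regions found only in the 2 p42 lists. The interval of the regions missing in p42 overlapped none of these, and without the 55 Alu-like regions the share was again 23.9%. Among the 4 flanked forms searched, GTGACTCAT was found in 3.55% against 1.04% of the reference, ATGACTCAT in 4.04% against 1.37%, ATGACTCAC in 3.06% against 1.02% and GTGACTCAC in 1.86% against 0.858%. The longer TGACTCAGC, preferred by BACH and NFE2 factors with their small MAF partners, was found in 1.72% (1.31 to 2.27) against 1.38%, an interval that holds the reference. TGACGTCA, the site of CREB and ATF dimers, was found in 7 regions, 0.246% (0.119 to 0.507), below the 0.395% of the reference and above its weighted 0.158%, both inside the interval.

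RUNX and GATA sequences were also more frequent. TGTGGTT was found in 507 regions, 17.8% (16.5 to 19.3), against 11.2% of the reference, or 11.7% weighted, and 9.38% of all regions. The joined AGGATGTGG was found in 93, 3.27% (2.68 to 3.99), against 1.64%, or 1.53% weighted, and 1.32% of all regions. AGATAAG was found in 169, 5.94% (5.13 to 6.87), against 3.24%, or 3.91% weighted, and 3.22% of all regions. GATA differed between the sets in another way than AP-1: its share was 7.67% in regions of the EV lists only, 2.47% in those of the p30 lists only and 1.35% in regions missing in EV. At least 1 of AP-1, RUNX and GATA was found in 1240 regions, 43.6%, against 23.4% of the reference.

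The matches were centred on the summits. In bins of 20 bp, AP-1 reached 5.77 matches per 100 regions just beside the summit against 2.18 in the reference, and RUNX 3.83 against 1.93. Beyond 200 bp the bins held 0.176 to 0.563 AP-1 and 0.246 to 0.633 RUNX matches per 100 regions, where the reference held 0.284 to 0.338 and 0.330 to 0.403. The excess over the reference lay at the summits, and beyond 200 bp the ranges overlapped.

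AP-1 and RUNX matches mostly lay in different regions. RUNX was found in 10.1% (8.08 to 12.6) of the 681 regions with an AP-1 match and in 20.2% of the 2163 without one, while in the reference the shares were 10.5% and 11.3%, nearly equal. GATA showed the same division, 2.79% (1.79 to 4.32) with AP-1 and 6.93% (5.94 to 8.08) without, and so did the ETS sequences CAGGAAGT or CCGGAAGT, 3.82% (2.62 to 5.54) and 7.30% (6.28 to 8.48). ETS matches were likewise scarcer in regions with a RUNX match, 2.76% (1.65 to 4.58), than in those without, 7.27% (6.29 to 8.40). In the reference both ETS divisions were narrower, 5.50% against 6.16%. RUNX and GATA did not divide in this way. GATA was found in 6.71% of the regions with a RUNX match and 5.78% of those without, and in 3.90% and 3.15% in the reference.

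AP-1 was more frequent in the stronger classes, without rising at each step. By the lowest percentile over the 4 lists, the 1184 regions under 10 held AP-1 in 21.5% (19.2 to 23.9), the 609 between 10 and 20 in 19.5% (16.6 to 22.9), the 535 between 20 and 30 in 28.0% (24.4 to 32.0) and the 156 between 40 and 50 in 34.0% (27.0 to 41.7), with 33.8% (23.5 to 46.0) of the 65 above 50, whose interval overlaps that of the weakest class. The reference stayed between 9.51% and 11.5% in the same classes. RUNX went from 16.3% (14.3 to 18.5) in the weakest class to 27.7% (18.3 to 39.6) in the strongest, against 10.4% to 11.6%, and here too the outer intervals touched. Levels of regions with and without AP-1 differed little: the median percentile was 34.2 and 30.9 in EV DMSO, 40.2 and 32.5 in EV tunicamycin, 37.3 and 33.4 in p30 DMSO and 33.2 and 29.9 in p30 tunicamycin.

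In the lists that did not choose the regions, those with AP-1 also repeated the pattern more often. Of the 12394 regions chosen on DMSO, 2179 held AP-1, and of these 71.4% (69.5 to 73.3) had a tunicamycin peak in EV, 66.2% (64.2 to 68.2) in p30 and 34.3% (32.3 to 36.3) in p42. Without AP-1 the shares were 60.1% (59.2 to 61.1), 54.3% (53.3 to 55.2) and 36.3% (35.4 to 37.3), so that the EV and p30 shares were higher with the motif while the intervals for p42 overlapped. RUNX gave 67.1%, 60.1% and 31.5% with the motif and 61.2%, 55.7% and 36.7% without. PU.1 went the other way, with a p42 peak after tunicamycin in 48.1% (44.4 to 51.9) of the regions with the motif and 35.3% (34.4 to 36.1) of those without. When regions were chosen on the tunicamycin lists instead, the p42 intervals for AP-1 lay apart. A p42 DMSO peak was found in 43.6% (41.7 to 45.5) with AP-1 and 51.8% (50.9 to 52.7) without. The EV shares were 68.6% and 60.4%, and the p30 shares 71.8% and 68.0%.

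Sequences of C/EBP and PU.1 were scarce. TTGCGCAA or TTGCACAA, the palindromic site of C/EBP dimers, was found in 11 regions, 0.387% (0.216 to 0.691), against 1.09% of the reference, or 1.31% weighted, 1.57% of all regions and 6.13% of regions found only in the p42 lists. The composite ATGTTGCAA or GTGTTGCAA of C/EBP and AP-1 partners was found in 1 region, 0.0352% (0.00621 to 0.199), against 0.459%, and TGATGCAA of C/EBP with ATF4 in 14, 0.492% (0.293 to 0.825), against 0.871%. These C/EBP sequences were scarce too in regions found only in the EV lists or only in the p30 lists. There the palindromic site had 0.504% and 0.502%, the composite 0.202% and 0.274%, and TGATGCAA 0.454% and 0.320%. GAGGAAGT of PU.1 was found in 114, 4.01% (3.35 to 4.79), against 8.07%, or 9.68% weighted, and 8.83% and 10.4% of the mirror sets missing in p30 and in EV, but 4.54% (3.71 to 5.55) of the regions found only in the EV lists. It fell away with strength, from 5.66% (4.48 to 7.12) of the regions under percentile 10 to 0 of the 65 above 50, a count that allows a share of up to 4.62% by 3 counts and 5.58% by the Wilson interval, where the reference held 7.38%. The intervals of the weakest and strongest class overlap.

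Among the other of the 37 motifs searched, the sequence AAAGGTCA of the NR4A nuclear receptors was found in 75 regions, 2.64% (2.11 to 3.29), against 0.984%, TGATTTAT or TGATTGAT of HOX and PBX partners in 80, 2.81% (2.27 to 3.49), against 1.25%, and CTAAAAATA or CTATAAATA of MEF2 in 63, 2.22% (1.74 to 2.82), against 0.937%, which weighting moved to 1.15%, 1.49% and 1.26%. Regions found only in the EV lists held 1.77% (1.27 to 2.44), 1.97% (1.44 to 2.68) and 1.41% (0.979 to 2.03) in the same order. These intervals overlap those of the set. Of the E-boxes, the sites of basic helix-loop-helix and ZEB or SNAI factors, CAGGTG was found in 15.8% (14.5 to 17.2) against 12.4%, or 9.87% weighted, but in 19.7% of the regions of the p30 lists only, whereas CAGCTG, at 14.1% (12.8 to 15.4) against 14.2%, or 12% weighted, had an interval that holds the unweighted reference. The CTCF core CCANNAGGG was found in 3.09% against 7.12%, or 5.20% weighted. The promoter sequences of KLF and SP factors (GGGGCGGGG or GGGTGTGG) were found in 2.25% (1.77 to 2.86) against 5.52%, which weighting to GC content and percentile brought to 2.74%, inside the interval. None of the 37 motifs was found in 330 regions, 11.6%, against 17.7% of the reference.

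The regions lay away from promoters. No more than 1000 bp from a start site of GENCODE were 325, 11.4% (10.3 to 12.6), against 23.9% of the reference and 15.6% of all regions, and the mirror sets, at 13.3% (11.8 to 15.1) and 11.7% (10.4 to 13.1), were low too. Introns held 57.7%, exons 9.18% and the space between genes 33.1%. The nearest start site of a protein-coding gene was a median of 27066 bp away against 15856 bp in the reference, and 23.8% against 18.1% lay farther than 100 kb. AP-1 was found in 16.6% of the regions at promoters and in 24.9% of the others, and RUNX in 13.8% and 18.3%. By chromosome, the share of EV and p30 regions without a p42 peak ran from 1.18% on chromosome 19 to 2.80% on chromosome 13.

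The regions were scattered over many genes. They were nearest to 1809 protein-coding genes as the only region of the set, and the nearest other region of the set was a median of 280619 bp away, with 126 (4.43%) under 10000 bp. Counts by nearest gene are labels of position, and many of the regions lay far from the gene. The genes below were picked for their counts, and 2.29% of all EV and p30 regions belonged to the set. SPRY2, an inhibitor of receptor tyrosine kinase signalling, had the most, 7 of its 127 EV and p30 regions. The closest of these lay at −76409 bp from a start site and the farthest at −837090 bp. RUNX1, the leukaemia-associated transcription factor, ALCAM, an adhesion molecule, the RNA-binding CELF4, and FLRT2 and SLITRK5, membrane proteins with leucine-rich repeats, had 6 each, of 83, 52, 80, 89 and 97. Another 11 genes had 5, among them MYC, the growth-promoting transcription factor (of 96), ZEB2, a zinc finger repressor (of 72), PIP4K2A, a phosphoinositide kinase gene (of 40), and GNAI1, which encodes an inhibitory G protein subunit (of 34). The others of these were ALK, CSMD3, ENSG00000237378, PLA2G4A, RALYL, SORCS1 and TSN. The MYC regions lay between −122428 bp, the closest, and 918565 bp, the farthest, from a start site.

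All 6 RUNX1 regions lay in introns of the gene. The one at chr21:35071577-35071711 was the strongest of them by its lowest percentile, 32.5, with 8 tags in EV DMSO, 7 in EV tunicamycin, 7 in p30 DMSO and 9 in p30 tunicamycin, where 4 tags had sufficed in each p42 list. Those at chr21:34845878-34846025 and chr21:35057496-35057753 held an AP-1 match. At GNAI1 all 5 regions were intronic, and the one at chr7:80127901-80128063 held 14, 15, 18 and 15 tags in the same order, where 9 had sufficed in both p42 lists. In tags the strongest RUNX1 region was near the median of the set, 8 in each list, and this GNAI1 region stood above it. By lowest percentile both regions stood in the upper part of the set. Of the 2844 regions, 1184 had a lowest percentile under 10, 609 between 10 and 20 and 535 between 20 and 30. Other RUNX1 regions were weaker. The one at chr21:35343228-35343371, of lowest percentile 1.40, held 6, 4, 6 and 6 tags in the same order.

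Genes of 9 lists were looked up for a region of the set within 50 kb of a start site, which 2843 of the 19962 protein-coding genes had, 14.2%. For the mirror sets these background shares were 9.02% (missing in p30) and 11.4% (missing in EV). Genes with many open regions around them have more chances, so the share of their EV and p30 regions that belonged to the set is given too, to be read against 2.29%.

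Erythroid and megakaryocyte genes stood highest, 10 of 20 (50%, 29.9 to 70.1), with 11 of 210 regions (5.24%, 2.95 to 9.13), against 1 and 2 of the 20 genes in the mirror sets. The region at −3816 bp from ITGA2B, which encodes the platelet integrin αIIb, at chr17:44393315-44393594, held 13, 17, 13 and 13 tags in EV DMSO, EV tunicamycin, p30 DMSO and p30 tunicamycin, where 8 had sufficed in each p42 list. ZFPM1, which encodes the GATA partner FOG1, had 2 intronic regions, with 9, 8, 8 and 7 tags at chr16:88491724-88491953 and 7, 8, 7 and 6 at chr16:88472197-88472461, where 4 to 5 had sufficed. A region 10844 bp downstream of a start site of TAL1, a helix-loop-helix factor of stem and red cells, at chr1:47213017-47213357, held 14, 13, 13 and 16 tags and an AP-1 match, where 9 had sufficed in both lists. The other regions lay near GP9 of the platelet glycoprotein Ib complex, the red cell membrane genes SLC4A1 and ANK1, HBA1 and HBG2 of the globins (the former in an intron of NPRL3, whose introns hold the α-globin enhancers), VWF and GFI1B. Levels at all of these were below percentile 40 in their weakest list. The erythroid marker HBB had no promoter peak in any list, and expression was not measured here.

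AP-1 family genes followed, 8 of 21 (38.1%, 20.8 to 59.1), with 9 of 307 regions (2.93%, 1.55 to 5.48), against 0 and 1 of the 21 genes in the mirror sets. A region 39703 bp from BATF, at chr14:75562159-75562360, held 11, 14, 13 and 11 tags and an AP-1 match, where 6 had sufficed in both p42 lists. One near NFE2, in an intron of CBX5, held 9, 9, 10 and 8, where 5 and 4 had sufficed. MAFF had a region 289 bp from its start, with 15, 14, 14 and 15 tags, where 11 and 10 had sufficed. NFE2L2, which encodes the oxidative stress factor NRF2, had 2 intronic regions, and BATF2, FOSL2, BACH1 and BACH2 had 1 each. FOS, JUN, JUNB, JUND and the other 9 genes of the list had none. The interval of the region share held the background of 2.29%.

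Stem cell and progenitor genes counted 10 of 33 (30.3%, 17.4 to 47.3), with 12 of 481 regions (2.49%, 1.43 to 4.31): MECOM, RUNX2, RUNX1, TAL1, LYL1, MYB, FLI1, MSI2, HMGA2 and GATA2. The region at −23290 bp from MECOM, which encodes the leukaemia-associated EVI1, at chr3:169686936-169687249, held 10, 8, 9 and 12 tags and a GATA match, where 4 had sufficed. Lymphoid genes counted 6 of 19 (31.6%, 15.4 to 54.0), with 6 of 234 regions, IL7R, RAG1, IKZF1, CD79A, TCF7 and CD7, of which the region at −38998 bp from IKZF1, the gene of the factor Ikaros, held 16, 20, 22 and 23 tags and an AP-1 match, where 12 and 11 had sufficed. For both lists the share of regions did not separate from 2.29%.

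Myeloid differentiation genes were at the low end, 2 of 27 (7.41%, 2.06 to 23.4), with 4 of 284 regions. These were CSF1R, the receptor of macrophage colony-stimulating factor, and CSF3R, the receptor of granulocyte colony-stimulating factor, whose promoter had 2 of the regions, with 12, 14, 13 and 11 tags 248 bp downstream of a start site and 10, 18, 12 and 9 tags at −172 bp, with p42 peaks 464 and 121 bp away. For the latter region 10 tags would have been needed in both p42 lists. Divided by the estimated depth, this was 0.334 in p42 DMSO and 0.393 in p42 tunicamycin, against 0.390 for the 9 tags of p30 tunicamycin. A level like that of p30 tunicamycin thus lay above the level needed in the p42 DMSO list. It lay just below the level needed in the p42 tunicamycin list. In the mirror set missing in EV, 7 of the 27 had a region, among them the neutrophil granule protein genes ELANE, PRTN3 and AZU1. Cytokine and inflammation genes counted 5 of 28 (17.9%, 7.88 to 35.6), TNFAIP2, NFKBIA, IL1A, IL1B and CCL5, where IL1A and IL1B shared a region, at chr2:112804272-112804508, with 10, 11, 8 and 12 tags and an AP-1 match. C/EBP and PAR genes counted 2 of 13, CEBPE and CEBPA. The CEBPA region, 6177 bp from its start at chr19:33296300-33296497, held 25, 18, 19 and 22 tags, but 15 and 13 would have been needed in the p42 lists. The unfolded protein and integrated stress response counted 3 of 18, XBP1, SDF2L1 and TRIB3, and the cell cycle 1 of 20, CCND2, with 1 of 234 regions (0.427%, 0.0755 to 2.38). None of these 5 lists had a gene share whose interval left out 14.2%.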

How the data were processed

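ATAC-seq of KO-52 cells gave 12 libraries, 2 per group in 6 groups, and the deposited files are 6 peak lists, each called by the authors on the pooled replicates of a group. The submitters' processing notes name Trim Galore 0.6.6, Bowtie2 2.4.4, Picard and MACS2, with hg38. Per the deposited lists, each peak has a fold enrichment of the summit pileup over the local background, a −log10 p against that background and a corrected significance score, −log10 q, of at least 1.3. Heights were not normalised between lists, so ranks within a list and tags per estimated depth were used. No column of per-sample values was left out (0).

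The whole pileup and the background at each summit were solved from fold and −log10 p (100% whole within 0.001), and depth was estimated from the lowest background over 2700000000 bp. Peaks were merged at 1 bp of overlap. The centre of a region was the mean of its summits. Motifs were searched as exact strings on both strands within 100 bp of it, 37 in all. The reference was weighted in 25 cells, 5 classes of GC content by 5 of percentile. Genes came from GENCODE release 44. A p42 limit is the smallest pileup whose −log10 p reaches the lowest of that list at the background scaled to its depth. Intervals are Wilson 95% intervals and cover counting error only. With 1 pooled list per group no test was possible. The study's methods count replicates of a cell line as individual experiments on distinct samples. The scripts were checked on simulated data. Python 3.11.15, numpy 2.4.6, pandas 2.3.3, scipy 1.17.1 and matplotlib 3.10.9 were used.

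The regions, motifs and gene lists were chosen with earlier results of these data known. Named were the 12 regions with the highest lowest percentile, the 10 genes with the most regions nearest to them (with ties), and, for 9 gene lists, up to 6 genes a list by the percentile of their region. Where a list had more, the others are named only to complete its count, and the 2nd region of a gene was chosen after its values were seen. The 17 alternatives tried are given in the closing section. Some of the items computed are not reported here.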

Additional observations from a re-analysis of the deposited data

How the results depend on the processing

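No paired analysis was possible because the deposited lists pool the replicates, which also left no replicate to leave out. Of 60 comparisons of the principal values with an alternative, 24 stayed within the spread set for them and 36 moved. Direction was compared with the reference for motif and promoter shares only, and there it did not turn. Weighting the reference leaves the AP-1 share of the set as it is, so that comparison could not move. Requiring a −log10 q of 2 in the EV and p30 lists gave a p42 share in the lists not used for the choice of 37.0% (36.0% as reported) and a mean median percentile of 35.3 (33.3). Requiring 5 left 287 regions, with AP-1 in 31.7%, 9.76% at promoters, 304 genes, 51.9% and percentile 53.9. Equal numbers of peaks from each list gave 5217 regions (2377 shared), AP-1 in 21.6%, 4947 genes, 37.1% and 36.5. Scaling pileups to the shallowest list gave 2921 regions, 37.0% and 34.1. Peaks covering at least 50% of a region gave 4011 regions, 13.1% at promoters, 31.3% and 54.2, and shared 1084 regions, 38.1% of the set and 27.0% of that alternative. Widening p42 peaks by 250 bp left 2517 regions, 10.3% at promoters and 37.0%. The DMSO lists alone gave 12394 regions, AP-1 in 17.6%, 9130 genes and percentile 27.5, and the tunicamycin lists alone 14433, 17.5%, 13.3% at promoters, 10308 genes and 27.9. AP-1 was found in 19.1% within 50 bp (reference 7.75%), 26.7% within 200 bp (14.1%) and 62.6% with 1 mismatch (48.4%). Promoters of 500 and 2000 bp held 7.59% and 18.2%. Genes within 100 and 10 kb numbered 4624 and 945.

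Over the 9 alternatives that changed the regions, AP-1 (17.5% to 31.7%), RUNX and GATA stayed above, and PU.1, CEBP and the promoter share below, the reference set in the same way. The cause of the moves was not tested. With a median of 8 tags at a summit, the presence of a peak turned on few tags.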

Other observations

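Among all 7-base words, those more frequent around these summits than in the reference included ACAGGAA (19.1% against 11.9%) and ATGGAAA (10.2% against 4.14%). CCCCGCC (1.34% against 8.57%) was less frequent. The words were picked by their values, and GC content was lower in the set than in the reference. Regions with a GATA match stood at a median log2 ratio of tunicamycin to DMSO of −0.18 in EV and −0.02 in p30 cells, against −0.06 and 0.20 without the match, a difference whose relation to the motif was not tested.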
